A study of Mus musculus with 12 samples.

Results

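The Mir-96 family joins 3 related miRNAs, miR-96, miR-182 and miR-183, which are encoded side by side in the mouse genome as the miR-183/96/182 cluster. It was followed in small RNA libraries from the hippocampus of 12 male wild-type C57BL/6J mice, a standard inbred strain. In the exercised lineage, 6 mice were the F2 offspring of exercised grandfathers, reached through the male line. In the sedentary lineage, 6 mice were the F2 offspring of sedentary grandfathers, and the comparison asks whether the grandfathers' exercise goes with a different miRNA profile. The labels give no age of the mice, and they describe no treatment of the F2 mice themselves. Members were chosen by name alone: every row of the deposited table that carries the MirGeneDB family name Mir-96. This gave 3 of 513 miRNA arms, the 5p arm of each of the paralogues Mir-96-P1, Mir-96-P2 and Mir-96-P3, and all 3 passed the filter on low values.

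The cluster is transcribed as 1 precursor RNA in the cells of sensory organs, among them photoreceptors, hair cells of the inner ear and sensory neurons. Mutations in the seed of miR-96, the stretch that pairs with target mRNAs, cause progressive hearing loss in mice and humans. The cluster is also found in epithelia, where it often appears with the miR-200 family (Mir-8 in MirGeneDB), miRNAs that repress the Zeb transcription factors and so maintain the epithelial state. In the adult forebrain miR-182 has been studied in memory, as a repressor of the actin regulators cortactin and Rac1.

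The mature 5p sequences, taken from RefSeq on GRCm38 (the build also called mm10), are shown because they set how far the members can be told apart and which targets they can share. Capitals mark the seed, bases 2 to 8, counted from 1 at the 5′ end.
miR-96-5p (Mir-96-P1): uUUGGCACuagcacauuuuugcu
miR-182-5p (Mir-96-P2): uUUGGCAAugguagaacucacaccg
miR-183-5p (Mir-96-P3): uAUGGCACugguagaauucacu
The deposited table holds no sequences. Its paralogues were therefore paired with miR-96, miR-182 and miR-183 by the MirGeneDB numbering, a pairing that was not checked against sequence, and every value given under a miR name depends on it.

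No pair of the 3 shares a whole seed. From miR-96 to miR-182 the seed carries the single substitution C8A, and from miR-96 to miR-183 the single substitution U2A. miR-182 and miR-183 differ at both positions (U2A and A8C), so 5 of their 7 seed bases are the same. Along the whole arm, compared base by base without gaps from the 5′ end, miR-182 and miR-183 are the closest pair, with 18 of 22 bases identical (81.8%). miR-96 shares 12 of 23 bases with miR-182 and 13 of 22 with miR-183. Among the mature mouse miRNAs in the RefSeq table, 1 other, miR-1271-5p, has the seed of miR-96, and none has that of miR-182 or miR-183. The Mir-96-P3 row carries the 2 names Mir-96-P3-v1_5p and 96-P3-v2_5p, which MirGeneDB uses for products of 1 hairpin cut at different positions. They share 1 value here, so a shifted seed of miR-183 cannot be separated.

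All 3 hairpins lie on the minus strand of chromosome 6 within 3820 bases (GENCODE M21, GRCm38). In the order of transcription they are Mir183 (chr6:30169668-30169737), Mir96 (chr6:30169446-30169551) and Mir182 (chr6:30165918-30165992). Mir183 and Mir96 are 116 bases apart, and Mir182 follows after a further 3453 bases. No other annotated gene overlaps any of the 3. The nearest protein-coding genes are Nrf1, 12459 bases from Mir182, and Ube2h, 41551 bases from Mir183. The long noncoding RNA gene Rncr4 starts 3155 bases from Mir183 on the opposite strand.

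Libraries held 6862623 to 10219856 reads on miRNA arms. Values are normalized counts: each library's reads were scaled by a single size factor. The tissue label was checked against neuronal miRNAs (Mir-9, Mir-124, Mir-128, Mir-138 and Mir-218), a check of neuronal tissue and not of the brain region. Their 12 arms held 33.9% to 39.8% of the counts in every library. Submitter codes fall into 4 sets of 3 mice with a common beginning: R31 (mice 1 to 3) and R41 (mice 4 to 6) among the exercised-lineage codes, S11 (mice 1 to 3) and S41 (mice 4 to 6) among the sedentary-lineage ones. Its meaning is not given, so p-values measure the spread between mice that may be related. In whole-tissue RNA, a change in the number of cells of a type and a change in RNA per cell cannot be told apart.

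The family was a minor part of the hippocampal profile. Its 3 arms together held 0.00570% to 0.0256% of the counts in 11 libraries and 0.167% in the library of sedentary-lineage mouse 5. By mean over the 12 libraries, Mir-96-P3 ranked 160, Mir-96-P2 170 and Mir-96-P1 330 of 513 arms. These means are pulled up by the single high library: over the other 11 the ranks were 201, 208 and 361.

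miR-183 (Mir-96-P3), which lies first in the precursor, was the most abundant member on average. In the exercised lineage it ran from 252 (mouse 3) to 1061 (mouse 2) normalized counts, with a median of 571 and a mean of 604 ± 332 (SD, n = 6). In the sedentary lineage it ran from 251 (mouse 1) to 7476 (mouse 5), with a median of 493 and a mean of 1657 ± 2861 (SD, n = 6). Sedentary-lineage mouse 5 stood above every other library, while the remaining 5 mice, at 251 to 945, overlapped the exercised lineage nearly throughout. Without mouse 5 the sedentary mean was 494 ± 279 (SD, n = 5).

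miR-182 (Mir-96-P2), which lies last in the precursor, stood at nearly the same level. In the exercised lineage it ran from 253 (mouse 1) to 846 (mouse 2) normalized counts, with a median of 540 and a mean of 548 ± 277 (SD, n = 6). In the sedentary lineage it ran from 230 (mouse 1) to 5816 (mouse 5), with a median of 393 and a mean of 1333 ± 2211 (SD, n = 6), or 436 ± 286 without mouse 5 (n = 5). The lineages overlapped for this arm as well, and the same mouse was the highest.

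miR-96 (Mir-96-P1), the member mutated in hereditary hearing loss, was the least abundant. In the exercised lineage it ran from 17.6 (mouse 1) to 94.2 (mouse 4) normalized counts, with a median of 59.6 and a mean of 60.0 ± 30.05 (SD, n = 6). In the sedentary lineage it ran from 24.6 (mouse 4) to 535 (mouse 5), with a median of 33.8 and a mean of 122 ± 203.4 (SD, n = 6), or 39.4 ± 22.0 without mouse 5 (n = 5). Counting error is widest for this arm: its lowest value rests on 19 reads, with an exact 95% Poisson interval of 10.6 to 27.5 normalized counts, and its highest on 650 reads, with an interval of 495 to 578. These intervals treat each read as an independent count and cover no spread between mice. PCR copies were not told apart, so the intervals can be too narrow even for counting error.

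**Figure D1:**
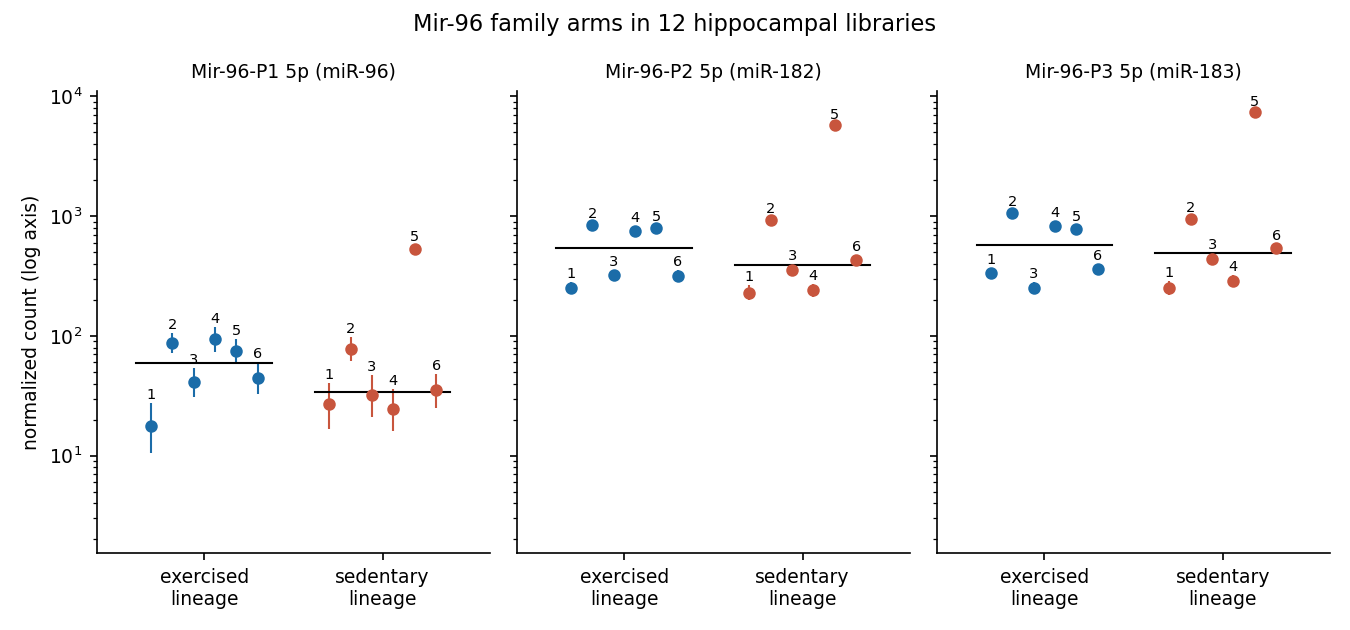
Normalized counts (log axis) of the 3 Mir-96 family arms in the 12 libraries, with the mouse number above each point, exact 95% Poisson intervals as error bars and a black line at the median of each lineage. The lineages overlap in all 3 panels, and sedentary-lineage mouse 5 lies far above the rest, at 535, 5816 and 7476.

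No member met the adjusted threshold between the lineages. On the log2(value + 1) scale, exercised minus sedentary lineage, the difference was -0.11 for miR-96 (95% confidence interval -1.58 to 1.36), -0.30 for miR-182 (-1.79 to 1.19) and -0.42 for miR-183 (-1.96 to 1.11). The limma adjusted p was 0.976, 0.920 and 0.866, adjusted over all 474 arms tested. Of those 474 arms, 0 (0%) were called at a limma adjusted p below 0.05, and 34 (7.17%) had an unadjusted p below 0.05, none of them a member. Each interval reaches past a 2-fold difference both ways, so these libraries do not exclude a difference of that size.

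All 3 directions turned when 1 library was left out. Without sedentary-lineage mouse 5 the log2 difference became 0.53 for miR-96 (95% confidence interval -0.39 to 1.46), 0.36 for miR-182 (-0.55 to 1.27) and 0.26 for miR-183 (-0.67 to 1.18), with limma adjusted p of 0.648, 0.766 and 0.868. The sign for miR-96 also turned without exercised-lineage mouse 1, to 0.19 (adjusted p = 0.931). With any other single library left out, the sign stayed negative for all 3. No direction between the lineages is given for the family for that reason. Of the 6 mice of each lineage, 1 stood far from the other 5 (gap over range above Dixon's 95% critical value) for each of the 3 members in the sedentary lineage, against 10.8% of the 474 arms there, and for 0 members in the exercised lineage, against 8.02%.

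**Figure D2:**
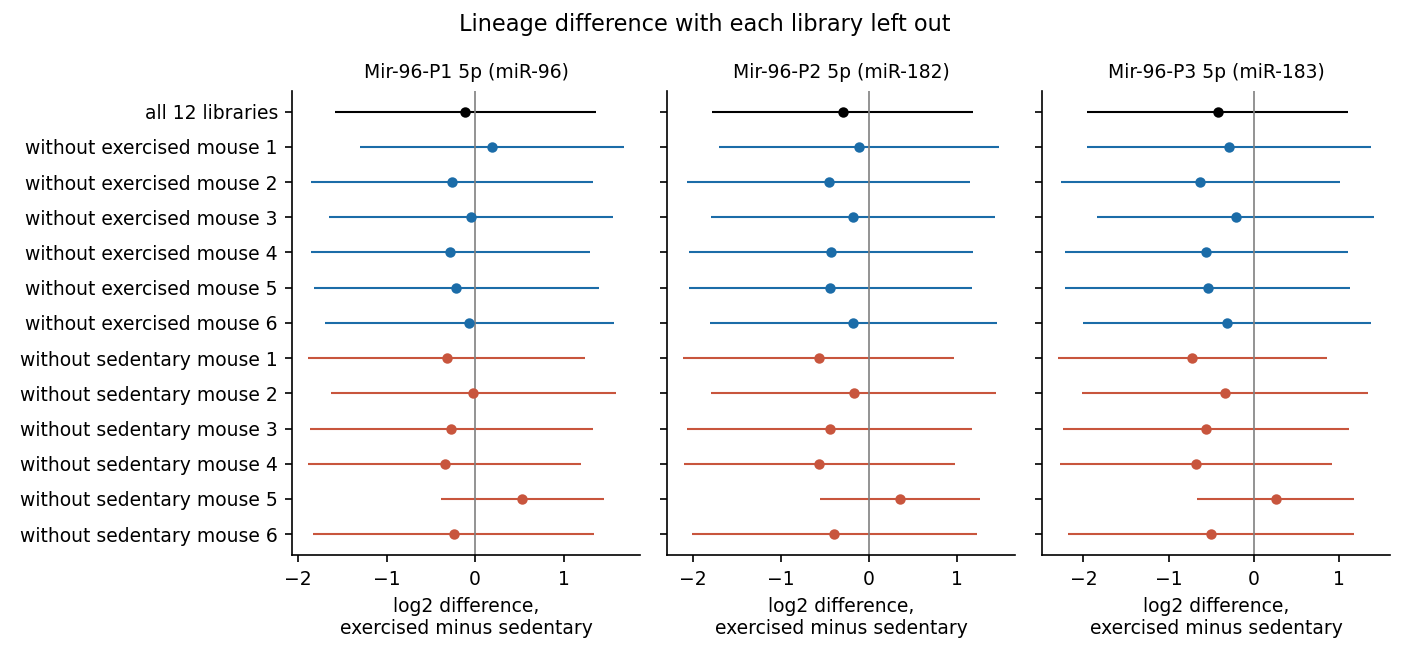
Log2 difference between the lineages (exercised minus sedentary, on log2(value + 1)) with its 95% confidence interval from limma, for all 12 libraries (black) and with each exercised-lineage (blue) or sedentary-lineage (red) library left out. All intervals include 0, and the differences move above 0, to 0.53, 0.36 and 0.26, without sedentary-lineage mouse 5.

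The mixture of the 3 members varied little beside their levels. miR-183 made up 40.9% to 55.1% of the family's counts per library, miR-182 41.9% to 52.4% and miR-96 2.92% to 6.70%. miR-182 exceeded miR-96 in 12 of 12 libraries, by a median of 10.2-fold (range 7.04 to 14.4). miR-183 exceeded miR-182 in 10 of 12, by a median ratio of only 1.17 (range 0.779 to 1.32), and their 95% Poisson intervals overlapped in 7 of 12, so these neighbours in the order are not separated in every mouse. Ligation during small RNA cloning favours some ends over others, and levels of different miRNAs are comparable only within that limit. The lowest share of miR-183, 40.9% in exercised-lineage mouse 3 (95% Wilson interval 37.4% to 44.4%), lay below the interval of each other library.

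In sedentary-lineage mouse 5 the mixture was like that of the other mice, although all 3 members were raised. Its family counts rest on 16787 reads, against 417 to 2368 in the other libraries. The split was 54.1% miR-183 (95% Wilson interval 53.3% to 54.8%), 42.1% miR-182 (41.3% to 42.8%) and 3.87% miR-96 (3.59% to 4.17%). Each of these shares fell inside the range of the other 11 libraries.

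**Figure D3:**
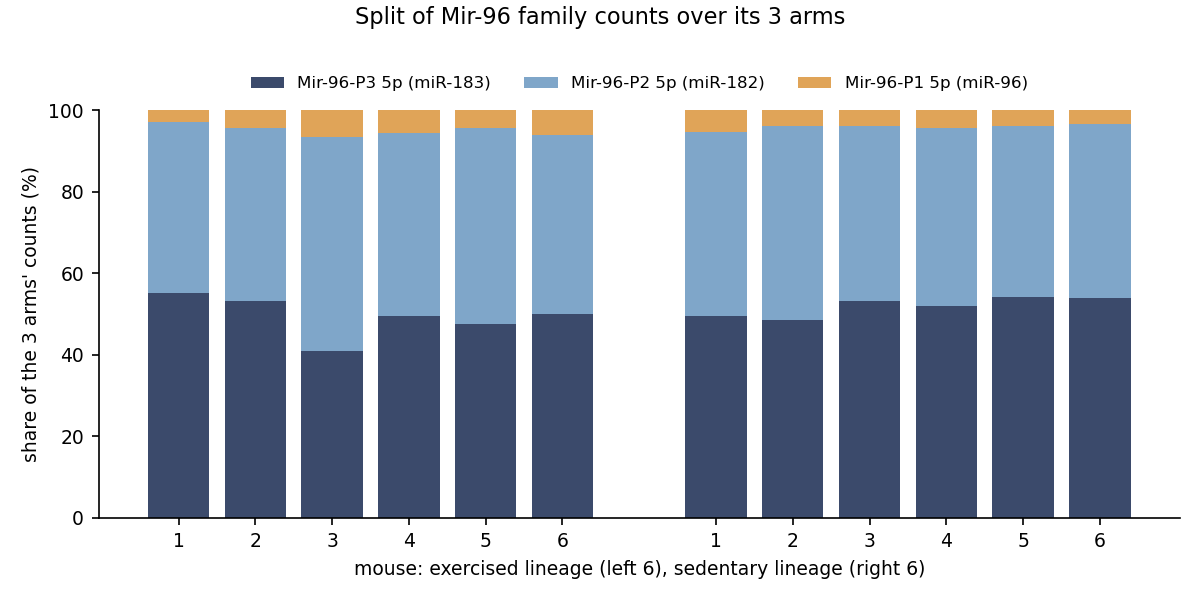
Share of the family's normalized counts (%) that each of the 3 arms took in each library, with exercised-lineage mice 1 to 6 on the left and sedentary-lineage mice 1 to 6 on the right. The miR-96 share stays between 2.92% and 6.70%, and sedentary-lineage mouse 5 does not stand apart.

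Sedentary-lineage mouse 5 was compared with the median of the other 11 libraries for every tested arm, a description made after its values had been seen. By the difference on log2(value + 1), the 3 members held the first 3 places of 474 arms. By plain ratio, miR-183 stood at 16.9 times, miR-182 at 16.3 times and miR-96 at 12.97 times that median, and at 7.05, 6.28 and 5.68 times the next highest library. By that ratio Mir-8-P1b_3p, at 13.1 times the median, came before miR-96. Arms at 4-fold or more above the median on the log2(value + 1) scale numbered 10 of 474 (2.11%) in this library, against 0 to 3 in each of the other 11. These 10 arms were the 3 members and the 7 arms of the Mir-8 (miR-200) family. The next arm, Mir-1955_3p*, stood at 3.34-fold on the log2(value + 1) scale. The mice with the same start of code, sedentary-lineage mice 4 and 6, had miR-183 at 287 and 543 normalized counts. Depth in this library, 10057266 reads, was the second highest of the 12.

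Each of the 7 Mir-8 arms was higher in that mouse than in any other library, at 4.91 to 13.1 times the median of the other 11. Mir-8-P1a_3p, the most abundant arm of the family, stood at 14946 normalized counts in mouse 5, against 1304 to 3537 in the other libraries. Mir-8-P2a_3p stood at 7695 against 816 to 2428, Mir-8-P3a_3p at 1090 against 78.0 to 280 and Mir-8-P2b_3p at 534 against 19.4 to 119. The passenger arm Mir-8-P1a_5p* stood at 916 against 108 to 310. The 2 scarcest arms were Mir-8-P1b_3p, at 180 against a highest of 48.2 elsewhere and listed at 0 in 2 libraries, and Mir-8-P2a_5p*, at 51.1 against a highest of 20.4. Mir-8-P2a_5p* passed the filter only through mouse 5, and without that pass 9 arms remained at 4-fold or more.

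**Figure D4:**
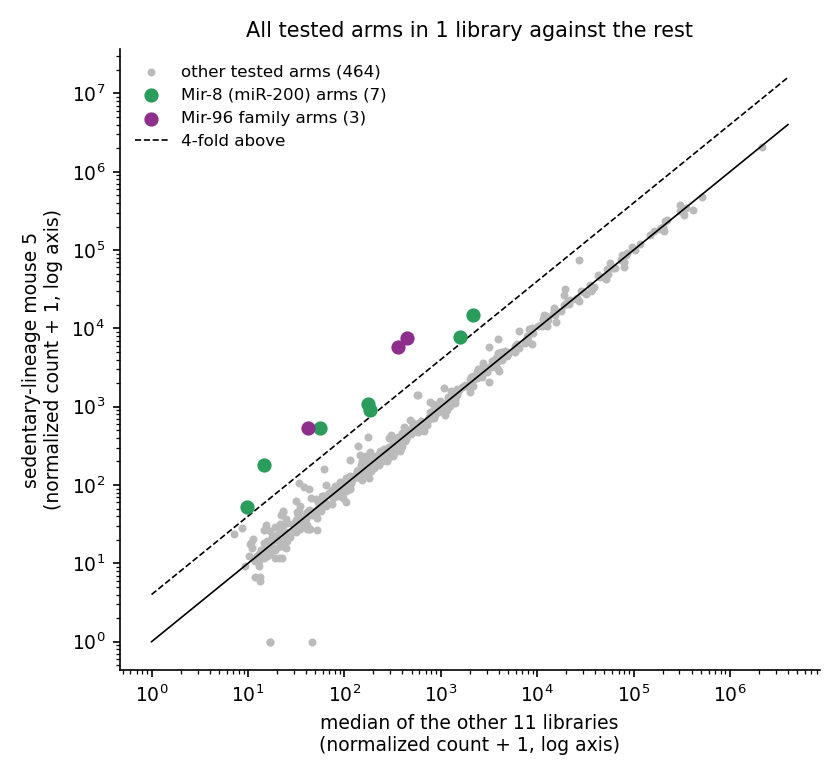
Each of 474 tested arms in sedentary-lineage mouse 5 against the median of the other 11 libraries (normalized count + 1, log axes), with equality as a solid and 4-fold above as a dashed line. The 3 Mir-96 arms (purple) and the 7 Mir-8 arms (green) are the 10 arms on or above the dashed line.

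Markers of other cell types were looked at in the same library, and the part of the muscle and choroid plexus arms in the result was not tested. Over all 474 tested arms, 22 were at 2-fold or more above the median of the other libraries. Of 8 tested arms of other epithelial miRNAs (Mir-203, Mir-375, Mir-31, Mir-192 and Mir-194), 0 were. Their summed level, 16665 normalized counts, lay inside the range of the others (14577 to 18697). Mir-192-P1_5p alone stood at 12805 in mouse 5, most of that sum, so the sum says little of the scarcer arms. Mir-205, an epithelial miRNA that did not pass the filter, was listed between 0 and 12.7 over the 12 libraries and at 4.94 in mouse 5. Choroid plexus and ependymal arms summed to 138715 in mouse 5, with 3 of 12 arms at 2-fold or more. That sum lay within the 46042 to 203211 of the others but above their median of 63195. The 3 listed muscle arms (of Mir-1 and Mir-133, miRNAs of skeletal and cardiac muscle) summed to 7529, the highest of the 12 libraries, against 2897 to 5611 elsewhere, with 2 of 3 at 2-fold or more. Mir-499_5p, a muscle miRNA outside that list, was not raised: 152 in mouse 5 against a median of 163 in the other libraries. Neuronal arms held 35.8% of the counts in mouse 5. Of 9 sensory and neuroendocrine arms (Mir-7, Mir-184, Mir-375 and Mir-204), 0 were at 2-fold or more. The same held for 0 of 5 erythroid, 0 of 5 oligodendrocyte, 0 of 6 endothelial and mural and 0 of 11 microglial and leukocyte arms. The erythroid sum was 938 against 631 to 1219 elsewhere, and the oligodendrocyte sum 20063 against 9949 to 20573. In the comparison of lineages, mouse 5 included, 3 of 7 Mir-8 arms had a difference above 0 and 4 below. Over all 474 tested arms, 236 were above 0 and 238 below. The median difference of the Mir-8 arms was -0.09, with 0 called. The same median was -0.30 for the 3 members and -0.00 over all 474 arms.

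The arms whose levels over the 12 libraries were most like those of miR-183, other than the members, were all of the Mir-8 family. On log2(value + 1), Pearson's r with miR-183 was 0.96 for Mir-8-P2b_3p, 0.93 for Mir-8-P1a_3p, 0.87 for Mir-8-P3a_3p, 0.86 for Mir-8-P2a_3p and 0.84 for Mir-8-P1a_5p*. Over the 11 libraries without sedentary-lineage mouse 5, r was 0.88, 0.77, 0.58 and 0.57 for the first 4, Let-7-P2_3p* came in between at 0.66, and Mir-8-P1a_5p* was no longer among the 8 most alike. These values describe arms that share libraries and size factors.

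Levels of the members and of the Mir-8 family were compared over the libraries on log2(value + 1). The comparison was planned after an earlier reading of these data had shown a library high in Mir-8. The p-values that include sedentary-lineage mouse 5 are therefore no independent test. With all 12 libraries, r with the summed Mir-8 arms was 0.95 for miR-96 (Spearman's rho 0.91), 0.94 for miR-182 (rho 0.77) and 0.93 for miR-183 (rho 0.76). The permutation p was 7.0e-05, 0.000210 and 0.000600 for r and 0.000210, 0.000378 and 0.000900 after adjustment over 9 relations, and the adjusted p for rho was 0.000450, 0.00862 and 0.00862. Leaving out the 2 libraries farthest from the median Mir-8 level, sedentary-lineage mice 5 and 6, gave r of 0.93, 0.95 and 0.91. Mouse 6 had the lowest Mir-8 sum (2387), and leaving it out alone raised r to 0.97, 0.98 and 0.97. The values without both mice therefore do not show the effect of mouse 5. Leaving out mouse 5 alone gave 0.86, 0.82 and 0.74 (permutation adjusted p = 0.00411, 0.00695 and 0.0196). Within the exercised lineage r was 0.94, 0.95 and 0.92 (exact permutation adjusted p = 0.0125, 0.0542 and 0.0667). Within the sedentary lineage, mouse 5 included, r was 0.98, 0.96 and 0.96 (exact permutation adjusted p = 0.0333 each), while rho was 0.66, 0.60 and 0.60 (adjusted p = 0.362 each). The sets of 3 mice with a common start of code are too small for a value of their own.

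**Figure D5:**
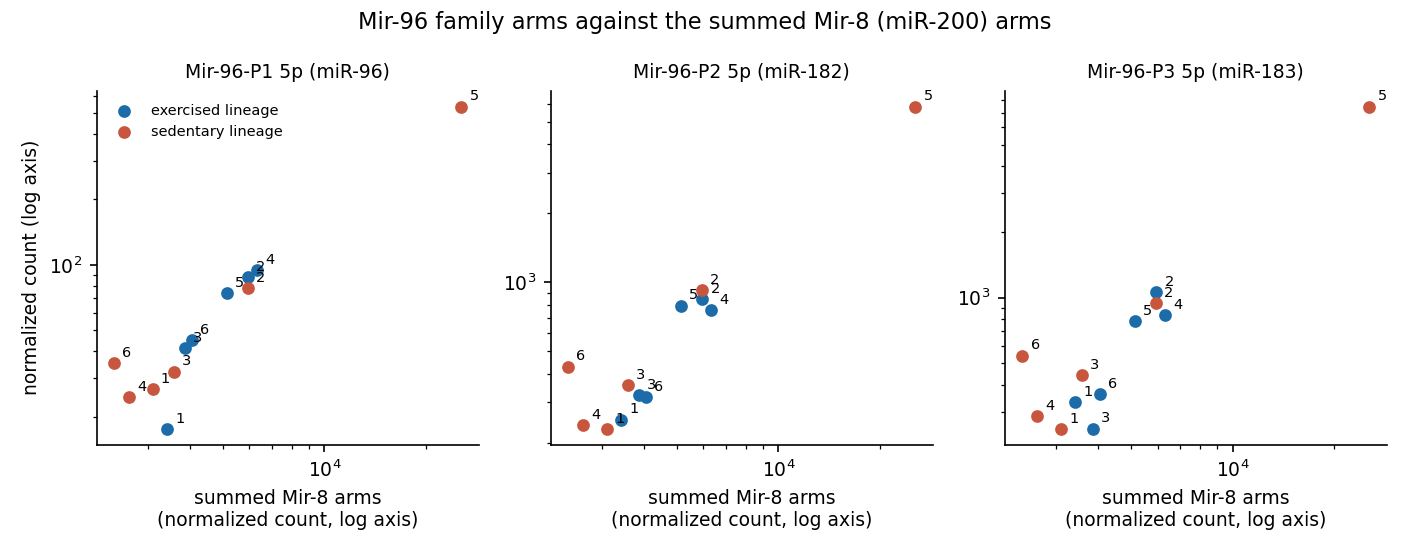
Normalized count of each Mir-96 family arm against the summed 7 Mir-8 (miR-200) arms in the 12 libraries (log axes), with mouse numbers beside the points and lineages in colour. Sedentary-lineage mouse 5 lies at the upper right, at 25411 on the Mir-8 axis, and the other 11 libraries, of both lineages, lie between 2387 and 6301.

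Choroid plexus and ependymal miRNAs, which differed widely between these libraries, had no detectable relation to the family over all 12. Their summed level gave r of 0.01 with miR-96, 0.06 with miR-182 and 0.00 with miR-183 over 12 libraries (permutation adjusted p = 0.995 for each; rho 0.01, 0.09 and -0.13). Within the exercised lineage r was -0.74, -0.65 and -0.72 (exact permutation adjusted p = 0.136, 0.281 and 0.183), and within the sedentary lineage 0.38, 0.35 and 0.29 (0.645, 0.645 and 0.668). Exercised-lineage mice 1 and 3 had choroid plexus sums of 178435 and 203211 normalized counts with miR-183 at 332 and 252. Sedentary-lineage mouse 2 had a sum of 199684 with miR-183 at 945, and mouse 1 of that lineage 197280 with 251.

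The members also varied together over the libraries. Over 12 libraries r was 0.99 between miR-182 and miR-183, 0.97 between miR-96 and miR-182 and 0.95 between miR-96 and miR-183 (permutation adjusted p = 0.000180, 0.000210 and 0.000378; rho 0.94, 0.86 and 0.83). Without the 2 libraries farthest from the median of the first-named member, r was 0.96, 0.94 and 0.87. Within the exercised lineage r was 0.95, 0.91 and 0.81 (exact permutation adjusted p = 0.0667, 0.05 and 0.0667). Within the sedentary lineage, mouse 5 included, r was 1.00, 0.99 and 0.99 (exact permutation adjusted p = 0.00833 each). There rho was 1.00, 0.94 and 0.94 (exact permutation adjusted p = 0.025, 0.05 and 0.05). The lowest of the 3 values in the 12 libraries belonged to miR-96 and miR-183, whose hairpins lie closest together, though the differences among these r were not tested. Both lower values involve miR-96, the arm with the fewest reads (19 to 650 per library), on which counting error weighs most.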

How the data were processed

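Small RNA was extracted with a Qiagen miRNA kit and sequenced from NEBNext small RNA libraries, per the labels' protocols. The authors deposited 1 table of normalized counts, a signal that is never negative: reads per mature arm divided by 1 size factor per library. Bowtie 1.3.0, mm10 and DESeq2 are named in the submitters' processing notes. For trimming, mismatches, multi-mapping reads and row filters, the setting is not given in the sources used here; reads shared by similar arms could therefore be counted in either. Each library's values were multiples of its own step (tolerance 0.01), which gave the reads quoted. The smallest value stood for 2 to 6 reads, so no count model was run. No 2 libraries of a lineage agreed within sampling noise.

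Arms with a mean of at least 10 (474 of 513) were tested with limma 3.58.1 in R 4.3.3 on log2(value + 1), with a mean-variance trend and Benjamini-Hochberg adjustment over all 474. The script was tested on simulated data. Correlations used 100000 permutations, two-sided, or all orders where n was below 10. Text names every Mir-96 row and the 5 arms most correlated with the most abundant one. Lists were matched by family name. Members and lists were chosen with earlier results of these data known.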

Additional observations from a re-analysis of the deposited data

Results flagged for a closer look

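In the sedentary lineage, mouse 5 stood far from the other 5 mice for each member. The gap to the next mouse, as a share of the whole range of the 6, was 0.896 for miR-96, 0.875 for miR-182 and 0.904 for miR-183, above Dixon's 95% critical value for 6 samples. The same mouse stood apart for the 5 Mir-8 arms most like miR-183: 0.863 for Mir-8-P2b_3p, 0.846 for Mir-8-P1a_3p, 0.838 for Mir-8-P3a_3p, 0.836 for Mir-8-P2a_3p and 0.850 for Mir-8-P1a_5p*. These 5 arms were picked by their r with miR-183 over all 12 libraries, mouse 5 included. Their flags are therefore not separate evidence. Chance flags about 1 in 20 groups, and of all 474 tested arms 51 (10.8%) were flagged in the sedentary and 38 (8.02%) in the exercised lineage. No member was flagged in the exercised lineage.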

How the results depend on the processing

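Across 0.5 and 5 as pseudocounts, 3 other scalings, no filter, a mean of at least 50, limma without trend or robust, both blocks and an exact permutation test, all 3 member differences kept their sign: -0.12 to -0.03 for miR-96, -0.31 to -0.21 for miR-182 and -0.43 to -0.34 for miR-183 (log2). No arm was called under any setting. The scalings moved the median of all arms by at most 0.09. With the mouse number as a replicate block the differences were -0.11, -0.30 and -0.42 (limma adjusted p = 0.970, 0.859 and 0.802). Same-numbered mice showed deviations with correlations of -0.17 to 0.15, and 1 of 6 was best with its own number, so the numbers were not taken as pairs. Count tests (edgeR, DESeq2) were not run, since single reads do not appear in the values.

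Leaving out each library gave -0.35 to 0.53, -0.57 to 0.36 and -0.72 to 0.26 for the 3 differences, with 0 calls each time (17 to 48 arms at an unadjusted limma p below 0.05). Leaving out the 3 mice of S41 gave 0.35, 0.20 and 0.15, and leaving out those of R31 gave 0.26 for miR-96; the S41 mice include mouse 5 and the R31 mice exercised-lineage mouse 1. The cause was not tested.

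With the summed Mir-8 arms, leaving out each library gave r of 0.86 to 0.98 for miR-96, 0.82 to 0.98 for miR-182 and 0.74 to 0.97 for miR-183. Between members it gave 0.93 to 0.98 (miR-96 and miR-182), 0.84 to 0.97 (miR-96 and miR-183) and 0.96 to 0.99 (miR-182 and miR-183). Within each lineage (added after the data were seen), the sedentary lineage, mouse 5 included, kept every call of these 6 relations by r. By rho it did not: the exact permutation adjusted p was 0.3625 for each member with Mir-8. Between members that p was 0.05 for miR-96 with miR-182 and with miR-183, and 0.025 for miR-182 with miR-183. The exercised lineage kept, by r, miR-96 with Mir-8 alone. There r with Mir-8 was 0.95 for miR-182 and 0.92 for miR-183, and between members 0.91, 0.81 and 0.95. With the choroid plexus sum, r was near 0 over 12 libraries and changed sign. It was -0.27 to 0.16, -0.20 to 0.19 and -0.32 to 0.13 with each library left out and -0.74, -0.65 and -0.72 within the exercised lineage. For miR-96 it was -0.00122 without the 2 farthest libraries, and for miR-183 -0.023 centred on lineage means. At 2-fold in place of 4-fold, 22 arms stood above the others in sedentary-lineage mouse 5, chosen after the data were seen. Depth limits miR-96 most, and the order of miR-182 and miR-183 in 7 of 12 libraries.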
